A study of Homo sapiens with 16 samples.

Results

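This account follows 10 genes of the NF-kB system in U2OS cells, an established human osteosarcoma line. They are the 5 Rel subunits NFKB1, NFKB2, REL, RELA and RELB, the IkB inhibitors NFKBIA, NFKBIB and NFKBIE, and the ubiquitin regulators TNFAIP3 and BIRC3. They were taken by symbol from a matrix of 25270 genes, and each was found on 1 line. Cells were exposed for 6 h to T5 or T4, compounds known here by code name that the series calls APA modulators, to CPT, named in the labels by that abbreviation alone, or to DMSO. T5, T4 and CPT each have a single library at each of the doses 0.5, 2, 5, 10 and 20 µM, and DMSO has 1 library. All 16 libraries came from the same line, with no genetic change named in the labels. No condition has a replicate, and separate cultures are not stated, so p-values measure only the scatter of single libraries around a fit. That scatter may be technical. It also holds the misfit of a straight line where levels bend with dose, and differences between compounds that vary with dose.

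NF-kB is a family of dimeric transcription factors. At rest the dimers are held in the cytoplasm by IkB proteins. A signal from a cytokine receptor or from damaged DNA activates the IKK kinases, IkB is marked and destroyed, and dimers such as RELA with p50, the processed product of NFKB1, enter the nucleus. Many genes that NF-kB switches on encode its own parts and brakes, above all NFKBIA and TNFAIP3, so that the pathway's own mRNAs are commonly read as a record of its activity. A slower branch through the kinase NIK releases RELB paired with p52, the processed product of NFKB2.

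The deposited values are FPKM, which divide a gene's fragments by its length and by library size. Changes and differences are on the log2(FPKM + 1) scale, which understates those of genes with low FPKM. FPKM summed to between 238669 and 285143 per library over all genes. Total depth is unknown. Set against DMSO at 1, the smallest FPKM steps gave treated libraries a depth from 0.639 (5 µM T5) up to 0.997 (0.5 µM T5). Of the bone and mesenchymal genes examined as a check of the label, the lowest levels of COL1A1, SPARC and VIM in any library were 301, 227 and 358 FPKM. COL1A2 was at most 0.133 FPKM, RUNX2 lay between 0.644 and 2.86 FPKM and ALPL between 1.35 and 2.54 FPKM. The 4 epithelial markers summed to between 2.31 and 4.52 FPKM, with EPCAM between 1.29 and 2.31 FPKM and KRT14 between 0.496 and 2.20 FPKM. Of the blood markers, HBB was listed at 0 in every library, and the summed level of the 5 lay between 0.0485 and 1.89 FPKM. The median of all 10600 genes tested, those with a mean FPKM of at least 1, lay below that of DMSO in all 15 treated libraries, by up to 0.63 log2 units at 20 µM T5.

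The promoters are shown because several of these genes are textbook targets of the factor they encode or restrain. RefSeq windows on GRCh38.p14, from 250 bases before to 50 bases after a transcription start, were at hand for 8 of the 10 genes. The kB consensus, the standard NF-kB binding motif, was searched on both strands. It was present in 8 of the 13 windows of these genes, covering 7 of the 8 genes, against 5.91% of all 35116 windows. Capitals mark consensus matches, and each sequence reads 5′ to 3′ along the gene's own strand, ending before the start site.
NFKBIA, chr14:35404796-35404855, minus strand: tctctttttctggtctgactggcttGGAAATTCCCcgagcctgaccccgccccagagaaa
TNFAIP3, chr6:137867167-137867238, plus strand: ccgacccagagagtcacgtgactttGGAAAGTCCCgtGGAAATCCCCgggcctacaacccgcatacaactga
BIRC3, chr11:102317260-102317383, plus strand: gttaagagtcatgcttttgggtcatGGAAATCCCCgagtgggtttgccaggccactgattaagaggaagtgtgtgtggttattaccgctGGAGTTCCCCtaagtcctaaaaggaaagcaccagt
NFKB2, chr10:102394446-102394534, plus strand: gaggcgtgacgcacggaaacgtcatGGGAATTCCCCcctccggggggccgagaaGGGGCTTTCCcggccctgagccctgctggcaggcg
NFKB1, chr4:102501285-102501344, plus strand: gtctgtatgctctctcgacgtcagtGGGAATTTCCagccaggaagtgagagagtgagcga
REL, chr2:60881502-60881562, plus strand: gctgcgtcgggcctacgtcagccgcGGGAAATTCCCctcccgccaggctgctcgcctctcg
NFKBIB, chr19:38899916-38899968, plus strand: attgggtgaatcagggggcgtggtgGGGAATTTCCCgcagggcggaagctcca
The runs of 11 capitals in NFKB2, REL and NFKBIB hold 2 overlapping matches on opposite strands. A further NFKB2 window with matches is not printed. No consensus match was found in the windows of RELA, and RELB and NFKBIE have no entry. A match is a string of letters and not evidence of binding in these cells.

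With all 3 compounds NFKBIA and TNFAIP3 mRNA was above DMSO at every dose. RELA, RELB and BIRC3 fell with T5 and with T4 dose, and NFKB2 and NFKBIE fell with T4, the BIRC3 and NFKB2 calls being lost with either rescaling of the libraries. With CPT, RELB, NFKBIE, BIRC3 and NFKBIB were also above DMSO at all 5 doses, and NFKB1 was the single member below DMSO at all 5. Of all genes, 32.8% were above DMSO at all 5 CPT doses and 37.3% below it. NFKBIB with T5 was level with DMSO, at 1.0006 to 1.09 times its level. At matched doses 9 of the 10 genes were lower with T5 than with CPT, against 37.6% of all genes, and 8 were lower with T4 than with CPT, against 36.9%. NFKB1 was higher in each comparison, as were 25% of all genes with T5 and 28.3% with T4. Leaving out BIRC3, which entered the tests through its CPT levels, 8 of 9 genes were lower with T5 and 7 of 9 with T4.

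**Figure D1:**
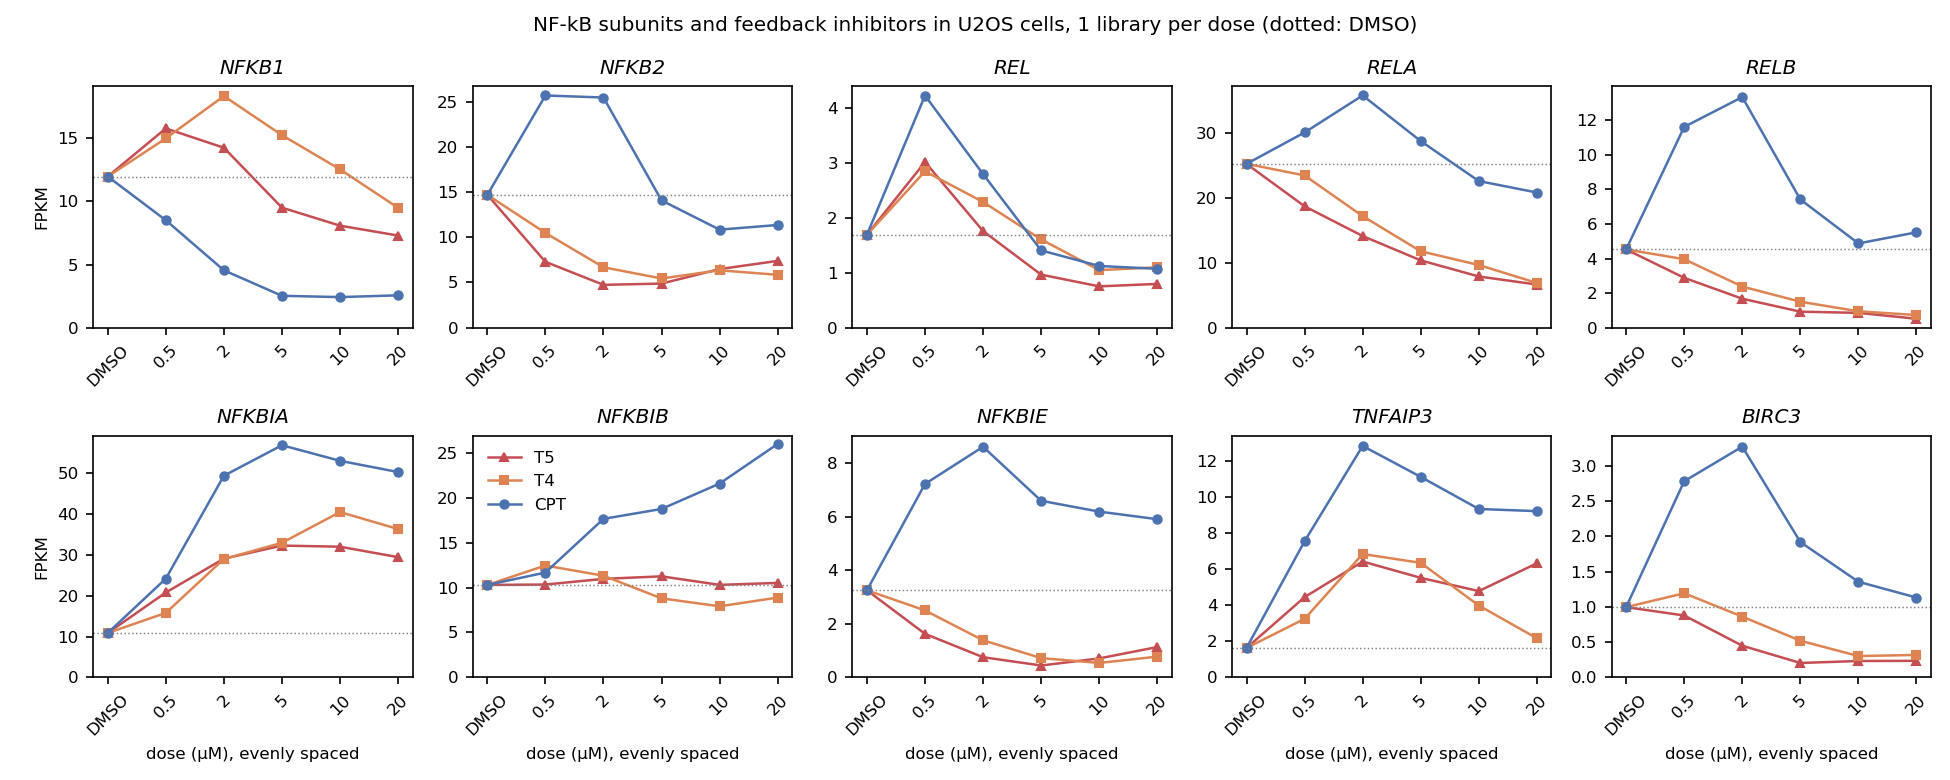
FPKM (vertical axes, from 0, a scale per gene) of the 10 genes at each dose (horizontal axes, evenly spaced, DMSO at the left) of T5 (triangles), T4 (squares) and CPT (circles), 1 library per point. RELB, NFKBIE and BIRC3 peak at 2 µM CPT and lie below DMSO at 20 µM T5 and T4, NFKBIA lies above the dotted DMSO line in all 15 treated libraries, and NFKB1 is the single gene whose CPT points all lie below it.

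RELA, the subunit with the main transactivation domain of the classical dimer, was the most abundant subunit in DMSO. It stood at 25.2 FPKM in DMSO and at 18.7, 14.1, 10.4, 7.88 and 6.63 FPKM along the rising T5 doses. Along the T4 doses it stood at 23.5, 17.2, 11.8, 9.65 and 6.88 FPKM, and along the CPT doses at 30.1, 35.8, 28.8, 22.6 and 20.8 FPKM. RELA was lower at each step up in T5 or T4 dose, and the CPT libraries lay on both sides of DMSO. The fitted change between 0 and 20 µM was -1.80 ± 0.12 with T5 (SE of the fit over 6 libraries, adjusted p = 0.000865, limma) and -1.79 ± 0.16 with T4 (adjusted p = 0.00121, limma). With CPT it was -0.37 ± 0.27 and was not called (adjusted p = 0.286, limma). In bulk RNA of a single line, fewer cells with RELA mRNA and less of it per cell cannot be told apart. FPKM are relative to library size and do not give the amount per cell.

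RELB, the subunit of the slower branch, stood at 4.53 FPKM in DMSO and at 2.88, 1.67, 0.921, 0.853 and 0.511 FPKM along the T5 doses. With T4 it stood at 3.96, 2.38, 1.50, 0.942 and 0.727 FPKM, and with CPT at 11.6, 13.3, 7.42, 4.87 and 5.52 FPKM. All 10 T5 and T4 libraries were below DMSO and all 5 CPT libraries above it, the CPT level being 2.95 times that of DMSO at 2 µM and 1.22 times at 20 µM. RELB fell by 1.85 ± 0.19 with T5 and by 1.82 ± 0.16 with T4 (adjusted p = 0.00121 for each, limma). The straight CPT trend, -0.39 ± 0.61, was not called, and a trend over the CPT libraries alone, without DMSO, fell by 1.57 ± 0.39 on the same scaling (adjusted p = 0.034, limma).

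NFKB2, the precursor of p52, the partner of RELB, stood at 14.7 FPKM in DMSO and at 7.27, 4.73, 4.87, 6.47 and 7.38 FPKM along the T5 doses. Along the T4 doses it stood at 10.5, 6.67, 5.43, 6.34 and 5.83 FPKM, and along the CPT doses at 25.7, 25.4, 14.1, 10.8 and 11.3 FPKM. All T5 and T4 libraries were below DMSO, with the T5 level lowest at 2 µM, and only the CPT libraries of 0.5 and 2 µM were above it. NFKB2 fell by 1.18 ± 0.29 with T4 (adjusted p = 0.0157, limma), a call that did not hold without the 0.5 µM T4 library (-1.17, adjusted p = 0.0546, limma), with median centring (-0.53) or with quantile normalization (-0.68). Its trends of -0.74 ± 0.49 with T5 and -0.84 ± 0.44 with CPT were not called.

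NFKB1, the precursor of p50, was lower with CPT than with T5 or T4 at every dose, and at 20 µM it was below DMSO with all 3. It stood at 12.0 FPKM in DMSO and at 15.8, 14.3, 9.51, 8.08 and 7.30 FPKM along the T5 doses. With T4 it stood at 15.0, 18.4, 15.3, 12.5 and 9.50 FPKM, and with CPT at 8.51, 4.54, 2.52, 2.42 and 2.56 FPKM. The CPT series was below DMSO from the lowest dose and flat from 5 µM upwards, and the T4 series was above DMSO except at 20 µM. NFKB1 fell by 2.06 ± 0.32 with CPT (adjusted p = 0.0105, limma), a call lost without the 10 µM CPT library (-2.02, adjusted p = 0.0537, limma), and its T4 trend of -0.32 ± 0.31 was not called. The T5 trend of -0.90 ± 0.27 was called (adjusted p = 0.0291, limma) but not with median centring (-0.23), with quantile normalization (-0.38), without the filter on low values (adjusted p = 0.0658, limma), or without the 0.5, 5, 10 or 20 µM T5 library (adjusted p between 0.0578 and 0.107, limma).

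NFKB1 is also the longest of the 10 genes. In GENCODE release 29 (GRCh38) it spans 116.0 kb, against 3.24 kb for NFKBIA, the shortest, and 50.1 kb for REL, the next longest. Of 1842 tested genes with an annotated span of at least 100 kb, 35.4% fell and 12.7% rose with T5, 29.9% fell and 11.2% rose with T4, and 26.7% fell and 6.62% rose with CPT. Of all 10036 tested genes with a span, 34.7% fell and 18.3% rose with T5, 32.5% fell and 14.6% rose with T4, and 26.1% fell and 18.0% rose with CPT. The share of long genes that fell with CPT was near that of all genes, but a smaller share of long genes rose. Median changes with CPT were -0.58 for the long genes, -0.15 for all with a span and 0.32 for those under 20 kb. Of the 3712 genes under 20 kb, 12.9% fell and 32.0% rose with CPT. With T5 27.8% of them fell and 26.9% rose, and with T4 29.4% and 20.4%. The part of gene length in the change of NFKB1 was not tested.

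REL encodes c-Rel, a subunit best known from lymphoid cells, and it had the lowest level of the 5 in DMSO, at 1.69 FPKM. It stood at 3.02, 1.76, 0.965, 0.752 and 0.796 FPKM along the T5 doses, at 2.85, 2.29, 1.61, 1.05 and 1.10 FPKM along the T4 doses and at 4.23, 2.80, 1.41, 1.12 and 1.07 FPKM along the CPT doses. In each series it was highest at 0.5 µM and under DMSO from 5 µM upwards. Its T5 trend of -1.0 ± 0.31 was called (adjusted p = 0.0329, limma), but not with median centring (-0.33), with quantile normalization (-0.40), without the filter on low values (adjusted p = 0.0877, limma) or without the 0.5, 5, 10 or 20 µM T5 library (adjusted p between 0.052 and 0.0978, limma). The trends of -0.68 ± 0.28 with T4 and -0.92 ± 0.44 with CPT were not called.

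NFKBIA encodes IkB-alpha, the fast-responding inhibitor that carries dimers back out of the nucleus. It stood at 10.9 FPKM in DMSO and at 20.8, 29.1, 32.3, 32.0 and 29.4 FPKM along the T5 doses. Along the T4 doses it stood at 15.8, 29.0, 32.9, 40.5 and 36.3 FPKM, and along the CPT doses at 24.2, 49.3, 56.8, 53.0 and 50.2 FPKM. All 15 treated libraries were above DMSO, by between 1.45 times at 0.5 µM T4 and 5.23 times at 5 µM CPT. The CPT and T5 levels were highest at 5 µM and the T4 level at 10 µM.

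NFKBIA rose by 1.26 ± 0.35 with T5 (adjusted p = 0.0241, limma), by 1.77 ± 0.28 with T4 (adjusted p = 0.00381, limma) and by 2.03 ± 0.51 with CPT (adjusted p = 0.0228, limma). Without the 10 µM library the T5 call was lost (1.25, adjusted p = 0.0647, limma), as it was without the filter on low values (adjusted p = 0.0673, limma). Without the 10 µM or the 0.5 µM library the CPT call was lost (2.06 and 2.11, adjusted p = 0.0661 and 0.0607, limma). It was also lost without the filter on low values (adjusted p = 0.0581, limma) and over the CPT libraries alone (1.14, adjusted p = 0.0921, limma), as was the T5 call over the T5 libraries alone (0.58, adjusted p = 0.0916, limma).

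NFKBIB encodes IkB-beta, an inhibitor that is slower to be destroyed. It stood at 10.3 FPKM in DMSO and at 10.3, 11.0, 11.2, 10.3 and 10.5 FPKM along the T5 doses. With T4 it stood at 12.4, 11.3, 8.79, 7.91 and 8.88 FPKM, and with CPT at 11.7, 17.6, 18.7, 21.6 and 26.0 FPKM. It was the single member whose CPT level grew at every step of dose. NFKBIB rose by 1.25 ± 0.15 with CPT (adjusted p = 0.0105, limma), and without the 10 µM CPT library the change was 1.28 and was not called (adjusted p = 0.0537, limma). The trends were 0.03 ± 0.13 with T5 and -0.44 ± 0.21 with T4, neither called as deposited, while the T5 trend was called upward with median centring (0.70) and quantile normalization (0.55). Its exons share 40 bases with those of SIRT2 on the opposite strand in the same annotation, and strand use in the counting is not given in the sources used here.

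NFKBIE, which encodes IkB-epsilon, another NF-kB-induced inhibitor, stood at 3.26 FPKM in DMSO and at 1.63, 0.755, 0.445, 0.710 and 1.13 FPKM along the T5 doses. Along the T4 doses it stood at 2.50, 1.39, 0.722, 0.540 and 0.777 FPKM, and along the CPT doses at 7.23, 8.62, 6.60, 6.19 and 5.91 FPKM. All 10 T5 and T4 libraries were below DMSO and all 5 CPT libraries above it. NFKBIE fell by 1.48 ± 0.24 with T4 (adjusted p = 0.00419, limma). With T5 the fitted change was -1.05 ± 0.43 (adjusted p = 0.0808, limma), and it was -1.69 without the 20 µM T5 library (adjusted p = 0.0165, limma). The CPT trend was 0.38 ± 0.42, not called.

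TNFAIP3 encodes A20, an enzyme that edits ubiquitin chains and shuts off signalling upstream of the IKK kinases. It stood at 1.64 FPKM in DMSO and at 4.46, 6.44, 5.53, 4.79 and 6.34 FPKM along the T5 doses. Along the T4 doses it stood at 3.25, 6.85, 6.36, 3.99 and 2.17 FPKM, and along the CPT doses at 7.57, 12.9, 11.1, 9.36 and 9.24 FPKM. All 15 treated libraries were above DMSO, and in each series the level was highest at 2 µM, at 3.93 times DMSO with T5, 4.19 times with T4 and 7.86 times with CPT. By 20 µM the T4 level was 1.33 times that of DMSO and the T5 level 3.87 times.

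None of the straight trends of TNFAIP3 was called, at 1.06 ± 0.43 with T5, 0.35 ± 0.66 with T4 and 1.51 ± 0.70 with CPT. With median centring it was called upward with T5 (1.74) and CPT (1.96), and with quantile normalization with T5 (1.71). The mean of the 5 libraries minus DMSO, a contrast added after the curves were seen, was 2.05 ± 0.28 with CPT (adjusted p = 0.0185, limma). That contrast takes the single DMSO library to vary like the treated ones. It also called NFKBIA with CPT (1.95 ± 0.45, adjusted p = 0.043, limma), and of all genes it called 5.11% higher and 8.53% lower with CPT. It called none of the 10 members with T5, where it called 0.00943% of all genes higher and 0.566% lower, or with T4, where it called 0.00943% higher and 0.0283% lower.

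BIRC3 encodes cIAP2, a ubiquitin ligase of the TNF receptor complex and an NF-kB target, and it had the lowest level of the 10 genes in DMSO and on the mean of all libraries. It stood at 0.997 FPKM in DMSO and at 0.879, 0.450, 0.205, 0.233 and 0.235 FPKM along the T5 doses. Along the T4 doses it stood at 1.19, 0.863, 0.521, 0.303 and 0.319 FPKM, and along the CPT doses at 2.78, 3.27, 1.92, 1.36 and 1.13 FPKM. All T5 libraries and 4 of 5 T4 libraries were below DMSO, and all CPT libraries above it. BIRC3 fell by 0.80 ± 0.15 with T5 (adjusted p = 0.00551, limma) and by 0.78 ± 0.14 with T4 (adjusted p = 0.00587, limma), but with median centring the values were -0.13 and -0.14 and with quantile normalization -0.31 and -0.28, none called. Its mean over all 16 libraries was 1.04 FPKM, just above the minimum for testing, and 0.564 FPKM without the CPT libraries, so it entered the tests through the CPT group. Its values against CPT therefore draw on the group that let it in. Without that filter its matched-dose differences from CPT came from the same libraries and were the same, which is no separate support.

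All 10 genes passed that minimum. With T5, 5 of them fell (NFKB1, REL, RELA, RELB and BIRC3) and 1 rose (NFKBIA), against 34.5% and 18.2% of all genes. With T4, 5 fell (NFKB2, RELA, RELB, NFKBIE and BIRC3) and 1 rose (NFKBIA), against 32.4% and 14.5% of all genes. With CPT, 1 fell (NFKB1) and 2 rose (NFKBIA and NFKBIB), against 25.8% and 17.9%. The median change of the 10 genes was -0.85 with T5, -0.73 with T4 and -0.33 with CPT, beside -0.29, -0.27 and -0.14 for all genes tested. RELA and RELB fell, and NFKBIA rose, with T5 and with T4 also after median centring and quantile normalization, while the falling counts became 2 with T5 (18.8% and 22.1% of all genes) and 3 with T4 (17.4% and 19.8% of all genes) under each of those scalings. The 3 trends share the DMSO library.

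By position relative to DMSO alone, 3 genes were above it and 5 below it in all 5 T5 libraries, against 18.3% and 41.5% of all genes. With T4 these counts were 2 and 4, against 17% and 33% of all genes, and with CPT 6 and 1, against 32.8% and 37.3%. The 3 with T5 include NFKBIB, which was level with DMSO, at 1.0006 to 1.09 times its level. At 2 µM CPT, 5 of the 10 were at least 2-fold higher than DMSO on the log2(FPKM + 1) scale, where 5.74% of all genes were. The number was 3 at 0.5 µM, 2 at 5 µM, 2 at 10 µM and 3 at 20 µM, against 2.45%, 5.58%, 5.43% and 6.12% of all genes. BIRC3, which entered the tests through its CPT levels, was among the 5 at 2 µM and the 6 above DMSO with CPT. Trends over the CPT libraries alone called 5 members falling, NFKB1, NFKB2, REL, RELB and BIRC3, by between 1.22 ± 0.29 for BIRC3 and 1.82 ± 0.40 for NFKB1, and called NFKBIB rising by 1.23 ± 0.17 (adjusted p between 0.0206 and 0.034, limma). Those fits called 22.5% of all genes falling and 15.4% rising.

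**Figure D2:**
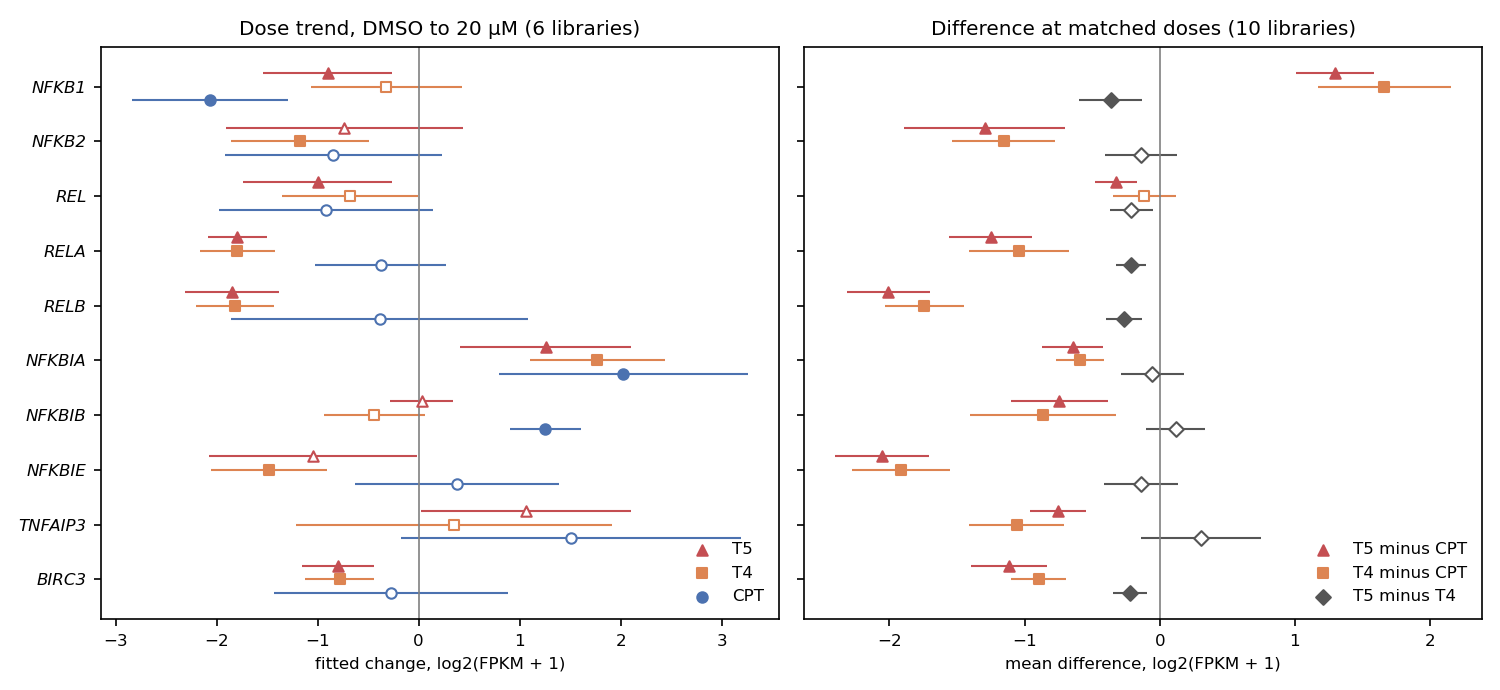
Fitted changes with dose (left, 6 libraries a compound) and mean differences between compounds at matched doses (right, 10 libraries a pair) on the log2(FPKM + 1) scale, with 95% intervals of the fit, filled where the adjusted p was under 0.05. NFKB1 lies right of 0 for T5 minus CPT and T4 minus CPT, and the other filled points of those pairs lie left of 0, the farthest being NFKBIE at -2.05 and -1.91.

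Matched doses compare the compounds directly and leave DMSO out. In the comparison of T5 with CPT, 9 members were lower with T5, against 37.6% of all genes, and 1, NFKB1, was higher, against 25% of all genes. In that of T4 with CPT, 8 were lower with T4, against 36.9%, and NFKB1 alone was higher, against 28.3%. NFKBIE showed the largest difference, at -2.05 ± 0.15 for T5 minus CPT and -1.91 ± 0.15 for T4 minus CPT (SE over 10 libraries, adjusted p = 0.000182 and 0.000391, limma). RELB followed at -2.01 ± 0.13 and -1.74 ± 0.12, then NFKB2 at -1.30 ± 0.25 and -1.15 ± 0.16, RELA at -1.25 ± 0.13 and -1.04 ± 0.16, and BIRC3, tested with the limit given above, at -1.11 ± 0.12 and -0.90 ± 0.08.

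NFKBIA, above DMSO with every compound, was lower by 0.64 ± 0.09 with T5 than with CPT and by 0.59 ± 0.07 with T4 than with CPT (adjusted p = 0.00144 and 0.00091, limma). TNFAIP3 was lower by 0.75 ± 0.09 with T5 and by 1.06 ± 0.15 with T4 than with CPT, and NFKBIB by 0.74 ± 0.15 and 0.86 ± 0.22. NFKB1 was higher by 1.30 ± 0.12 with T5 and by 1.66 ± 0.21 with T4. REL was lower by 0.32 ± 0.06 with T5 than with CPT (adjusted p = 0.00514, limma), which did not hold with median centring or quantile normalization (-0.14 in each). For T4 minus CPT it was -0.11, with a 95% interval from -0.34 to 0.12.

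The remaining calls of these comparisons held under both scalings, and leaving out any dose kept the counts at 9 lower for T5 and 8 lower for T4. The signed medians over all genes, in which rises and falls cancel, were -0.10 for T5 minus CPT and -0.09 for T4 minus CPT. Those of the 10 members were -0.93 and -0.97. Many of all genes still differed, with 37.6% called lower and 25% higher for T5 minus CPT, and 36.9% and 28.3% for T4 minus CPT. Counted dose by dose, 9 members were lower with T5 than with CPT at all 5 doses and 1 was higher, against 37.6% and 26.8% of all genes. With T4, 7 were lower than with CPT at all 5 doses and 1 was higher, against 37.5% and 29.3% of all genes. These comparisons share the CPT libraries, and their counts and medians include BIRC3, which entered the tests through those libraries. The members were chosen with earlier results of these data known, so their medians are a description.

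In the third of the 3 comparisons of compounds, 4 of the 10 genes were lower with T5 than with T4, against 26.5% of all genes, and 0 were higher, against 6.05%, none of the 95% intervals lying above 0. The 4 were NFKB1 (-0.36 ± 0.10, adjusted p = 0.0299, limma), RELB (-0.27 ± 0.06), BIRC3 (-0.22 ± 0.05) and RELA (-0.21 ± 0.05). RELB, BIRC3 and RELA, 3 of the 10, were lower with T5 than with T4 at all 5 doses and 0 were higher, against 31.3% and 9.34% of all genes. With median centring or quantile normalization 1 was called lower, where 11% and 12.7% of all genes were. The number of calls was 0 without the 2 µM or the 5 µM libraries, 2 without the 10 µM libraries and 5 without the 0.5 µM libraries. The 95% intervals of the others ran from -0.29 to 0.18 for NFKBIA, from -0.10 to 0.34 for NFKBIB, from -0.41 to 0.13 for NFKB2 and for NFKBIE, from -0.37 to -0.05 for REL (adjusted p = 0.0507, limma) and from -0.14 to 0.75 for TNFAIP3. At 20 µM the TNFAIP3 levels were 6.34 FPKM with T5 and 2.17 FPKM with T4, the widest gap of a single dose for that gene.

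In ratios within a library, any factor common to its genes cancels. NFKBIA per RELA was 0.430 in DMSO and 1.11, 2.06, 3.11, 4.06 and 4.44 along the T5 doses. It was 0.673, 1.69, 2.80, 4.19 and 5.27 along the T4 doses and 0.803, 1.38, 1.98, 2.35 and 2.41 along the CPT doses. The ratio grew at every step in all 3 series. At 20 µM it was higher with T5 and T4 than with CPT, with NFKBIA and RELA each at a lower level there. The summed level of the 3 IkB genes per summed level of the 5 subunits was 0.420 in DMSO, 1.82 at 20 µM T5, 1.91 at 20 µM T4 and 1.99 at 20 µM CPT.

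**Figure D3:**
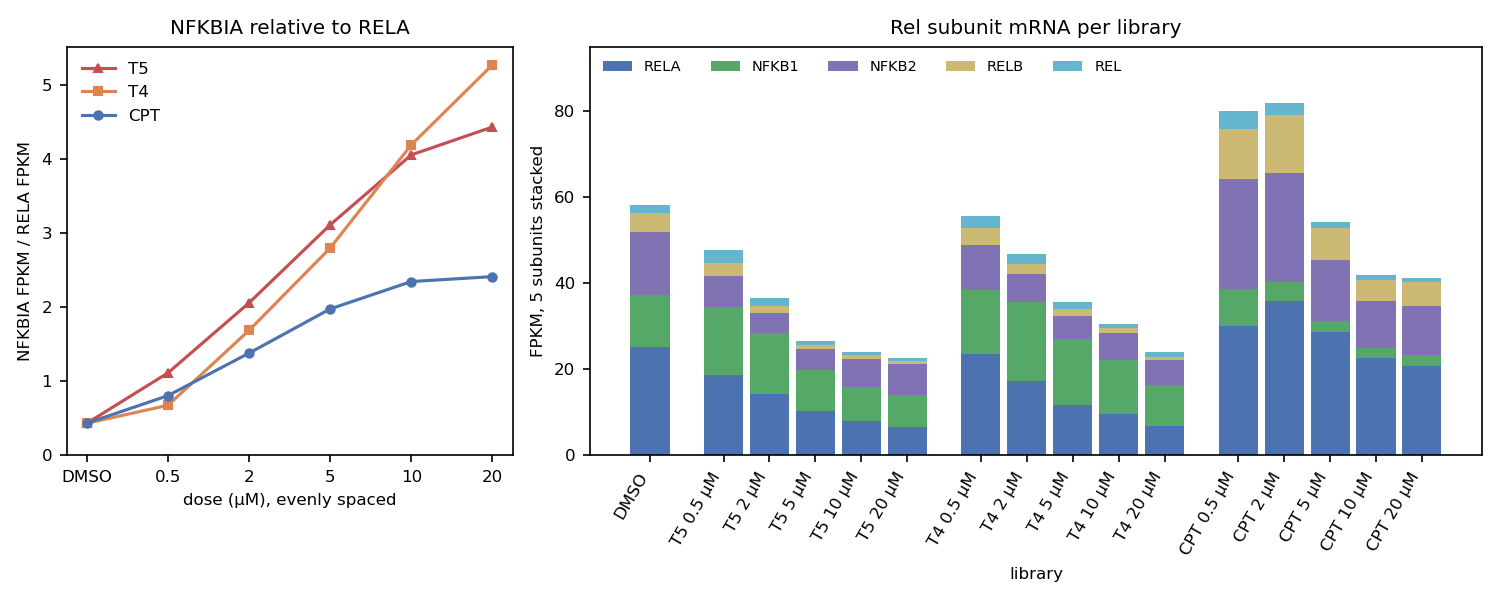
Left, FPKM of NFKBIA divided by that of RELA at each dose (evenly spaced, DMSO at the left), 1 library per point, reaching 4.44 with T5, 5.27 with T4 and 2.41 with CPT at 20 µM. Right, stacked FPKM of the 5 Rel subunits in each library, with a total of 58.1 in DMSO, 22.6 at 20 µM T5, 24.0 at 20 µM T4 and 41.3 at 20 µM CPT, and a narrow NFKB1 band in the CPT libraries.

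The mixture of subunit mRNAs changed with compound. FPKM of the 5 subunits summed to 58.1 in DMSO and to 47.7, 36.5, 26.6, 24.0 and 22.6 along the T5 doses. The sums were 55.7, 46.9, 35.6, 30.5 and 24.0 along the T4 doses and 80.1, 81.9, 54.2, 41.8 and 41.3 along the CPT doses. The total thus shrank along T5 and T4 and first grew with CPT. NFKB1 made up 20.6% of the sum in DMSO, 32.3% at 20 µM T5, 39.5% at 20 µM T4 and 6.19% at 20 µM CPT. RELB made up 7.79% in DMSO, 2.26% at 20 µM T5, 3.02% at 20 µM T4 and 13.4% at 20 µM CPT. NFKB1 per NFKB2, the precursors of p50 and p52, was 0.816 in DMSO, reached 3.02 at 2 µM T5 and 2.81 at 5 µM T4, and was lowest at 0.178 at 2 µM CPT.

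In DMSO the order of levels per length was RELA, NFKB2, NFKB1, NFKBIA, NFKBIB, RELB, NFKBIE, REL, TNFAIP3 and BIRC3, and with 1 library neighbours such as NFKBIA and NFKBIB (10.9 and 10.3 FPKM) or REL and TNFAIP3 (1.69 and 1.64 FPKM) cannot be ordered. At 20 µM NFKBIA was the highest of the 10 with each compound. Across the 16 libraries, which share DMSO and a common loss with dose, log2(FPKM + 1) of RELB and BIRC3 had a Pearson correlation of 0.98, RELA and RELB of 0.96, and NFKB1 and NFKBIB of -0.85. The genes outside the list most like each member, by the same measure over 16 libraries, were PDP2 and ZADH2 for RELB (0.99 each), TACO1 and MCAT for RELA (0.99 each), SLC16A3 and CLN8 for NFKBIE (0.99 each), KLHL28 and PDP2 for BIRC3 (0.98 each) and, for NFKB1, NUP35 (0.98). For NFKB2 they were PPCS and ZNF37A (0.98 each), for REL FAM171B and TRNT1 (0.97 and 0.96), for NFKBIA LAPTM4A and PRPF19 (0.96 each), for NFKBIB EMC6 and FBRS (0.97 and 0.96) and for TNFAIP3 METTL17 and PER1 (0.94 and 0.93).

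The rest of the pathway was followed through 43 genes that carry the signal, of which 38 were tested. With T5, 20 fell and 5 rose, with T4 20 fell and 3 rose, and with CPT 18 fell and 4 rose. Of all genes 34.5% fell and 18.2% rose with T5, 32.4% and 14.5% with T4, and 25.8% and 17.9% with CPT. With median centring 12 of the 38 fell and 7 rose with T5, 10 and 7 with T4, and 13 and 9 with CPT, where of all genes 18.8% fell and 41.4% rose with T5, 17.4% and 40.5% with T4, and 15.5% and 33.7% with CPT. With quantile normalization 10 fell and 3 rose with T5, 12 and 4 with T4, and 12 and 4 with CPT, where of all genes 22.1% fell and 28.4% rose with T5, 19.8% and 26.5% with T4, and 18% and 22.1% with CPT. At the membrane, 6 of 9 genes of the TNF receptor complex fell with each compound, against those 34.5%, 32.4% and 25.8% of all genes with T5, T4 and CPT. Among them TNFRSF1A, the main TNF receptor, fell with T5 (-3.86 ± 0.40), with T4 (-4.22 ± 0.23) and with CPT (-1.89 ± 0.28). BIRC2, which encodes cIAP1, the close relative of cIAP2, had the largest fall of these genes with CPT (-1.91 ± 0.30). It also fell with T5 (-1.47 ± 0.16) and with T4 (-1.72 ± 0.17). SHARPIN, a subunit of the linear ubiquitin ligase, rose by 0.64 ± 0.18 with T5 and by 0.73 ± 0.23 with CPT.

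**Figure D4:**
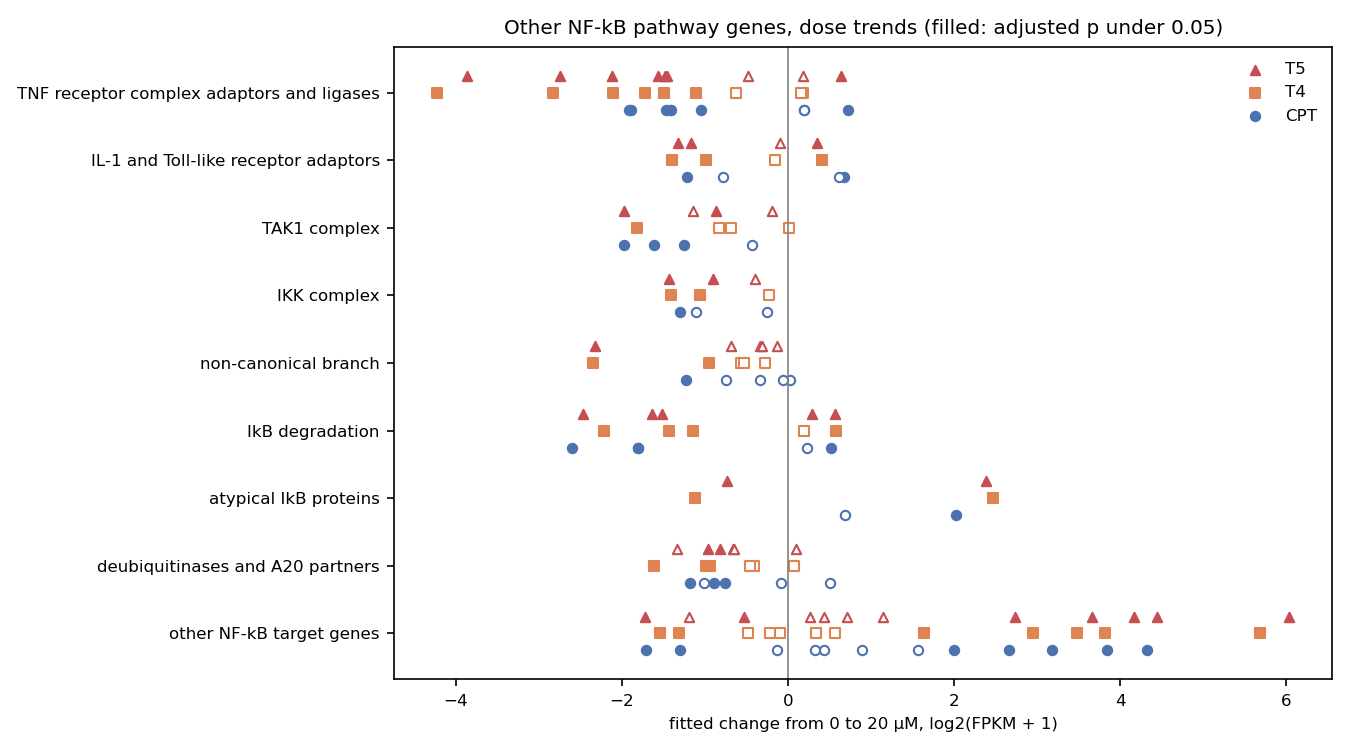
Fitted change from 0 to 20 µM on the log2(FPKM + 1) scale (horizontal axis) of each tested gene of 9 lists (vertical axis) with T5 (triangles), T4 (squares) and CPT (circles), filled where the adjusted p was under 0.05. Most filled points of the signalling lists lie left of 0, and the farthest right are CXCL8 at 6.04 with T5, 5.68 with T4 and 4.32 with CPT.

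Of the adaptors of the IL-1 and Toll-like receptors, TRAF6, a ubiquitin ligase, fell with T5 (-1.32 ± 0.21) and with T4 (-1.40 ± 0.17). Its CPT change of -0.78 ± 0.26 was not called. The interleukin-1 receptor IL1R1 fell with T5 (-1.16 ± 0.21), with T4 (-0.99 ± 0.25) and with CPT (-1.21 ± 0.21). The kinase IRAK1 rose by 0.36 ± 0.10 with T5, where its sign turned with quantile normalization (-0.04), by 0.41 ± 0.09 with T4 and by 0.68 ± 0.14 with CPT. In the TAK1 complex, which activates IKK, TAB1 fell with T5 (-1.97 ± 0.62), with T4 (-1.82 ± 0.50) and with CPT (-1.25 ± 0.29). TAB2 fell with CPT (-1.97 ± 0.48), and its changes of -1.14 ± 0.43 with T5 and -0.82 ± 0.29 with T4 were not called.

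Of the 3 IKK subunits, IKBKB, the catalytic subunit of the classical branch, fell with T5 (-1.43 ± 0.23), with T4 (-1.40 ± 0.19) and with CPT (-1.29 ± 0.22). MAP3K14, which encodes NIK, fell with T5 (-2.32 ± 0.29), with T4 (-2.35 ± 0.19) and with CPT (-1.23 ± 0.21). Of the 5 genes of the ligase that marks IkB for destruction, 3 fell with each compound, against 34.5% of all genes with T5, 32.4% with T4 and 25.8% with CPT. CUL1, its scaffold, fell with T5 (-2.47 ± 0.34), with T4 (-2.21 ± 0.27) and with CPT (-2.60 ± 0.45). Its adaptor SKP1 rose by 0.57 ± 0.17 with T5, by 0.58 ± 0.16 with T4 and by 0.52 ± 0.12 with CPT.

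Among atypical IkB proteins, which act in the nucleus, NFKBIZ rose by 2.38 ± 0.30 with T5, by 2.48 ± 0.27 with T4 and by 2.02 ± 0.33 with CPT. BCL3, a coactivator of p50 and p52 dimers, fell with T5 (-0.73 ± 0.20) and with T4 (-1.12 ± 0.25). Of 6 tested deubiquitinases and partners of A20, 3 fell with each compound, beside the same shares of all genes. The largest were TNIP2, an A20-binding protein, with T5 (-0.96 ± 0.21), and OTUD7B, a deubiquitinase, with T4 (-1.62 ± 0.41) and CPT (-1.18 ± 0.24).

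Of 20 further NF-kB target genes 12 were tested, and with each compound 5 rose and 2 fell, where 18.2% of all genes rose with T5, 14.5% with T4 and 17.9% with CPT. With median centring 8 rose and 1 fell with T5, 7 and 2 with T4, and 8 and 1 with CPT, where 41.4%, 40.5% and 33.7% of all genes rose. CXCL8, the neutrophil chemokine, rose most, by 6.04 ± 0.37 with T5, by 5.68 ± 0.41 with T4 and by 4.32 ± 0.98 with CPT. BCL2L1, the gene of the survival protein BCL-XL, fell most, with T5 (-1.72 ± 0.23), with T4 (-1.53 ± 0.18) and with CPT (-1.70 ± 0.25). CXCL8 did not differ past the threshold between T5 and CPT at matched doses (0.27 ± 0.35, adjusted p = 0.523, limma) or between T4 and CPT (-0.30 ± 0.35, adjusted p = 0.466, limma), and it was higher by 0.57 ± 0.07 with T5 than with T4 (adjusted p = 0.00422, limma). TNF, LTB and IER3 were listed at 0 in all 16 libraries, and a listed 0 can stand for an estimate that failed.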

How the data were processed

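RNA of 16 libraries of U2OS cells was sequenced, per the labels' protocols, after total RNA extraction, on an Illumina instrument. The authors deposited FPKM in a matrix with a column for each library, per the file headers. The submitters' processing notes name the aligner GSNAP, Cufflinks and the build hg19 (GRCh37). Strand use, gene models and tool versions: not given in the sources used here. Of the file, 2 inner header lines, 1 incomplete line and 220 repeats with identical values were left out.

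From the deposited FPKM, log2(FPKM + 1) was computed for the 10600 genes whose mean FPKM reached 1. limma 3.58.1 (R 4.3.3), with a mean-variance trend and 2-sided p-values, was fitted on all of them with Benjamini-Hochberg adjustment at 0.05. Dose trends used DMSO and the 5 libraries of a compound on log2(1 + dose / 0.5 µM), scaled to the change between 0 and 20 µM. Differences between compounds used dose as a block, without DMSO. The fits were tested on simulated data. Relative depth came from FPKM under 0.2 on a grid smoothed by 0.02 log2 units. Promoter windows are RefSeq's and gene spans GENCODE's, both on GRCh38, and no coordinates were taken from the deposited file. Figures were drawn with matplotlib 3.10.9, and other steps ran in Python 3.11.15 with numpy 2.4.6 and pandas 2.3.3.

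The 10 members and the pathway lists were chosen with earlier results of these data known. All members are named, called or not. From each other list the called gene with the largest change per compound and direction is named, and for each member the 2 most correlated genes, except that 1 of those for NFKB1 is not reported here. IRF1, TNF, LTB, IER3 and the marker genes named were chosen after their values were seen, as were values at single doses.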

Additional observations from a re-analysis of the deposited data

Results flagged for a closer look

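For RELB, NFKBIE and BIRC3 every library of one compound lay on the opposite side of DMSO from every library of another. For RELB and NFKBIE this held for T5 against CPT, with mean differences at matched doses of -2.01 and -2.05, and for T4 against CPT, with -1.74 and -1.91. For BIRC3 it held for T5 against CPT, with -1.11, though BIRC3 passed the minimum for testing only through its CPT levels (mean 0.564 FPKM without the CPT libraries). Each difference was tested at matched doses without DMSO (adjusted p between 0.000141 and 0.000461, limma). The rule that picked these had already fixed the sign at every dose in the same libraries, so those p-values are no separate support. The share of all genes that meet the rule is not given. Taken singly, 32.8% of all genes were above DMSO in all CPT libraries, and 41.5% and 33% were below it in all T5 and all T4 libraries. The sides themselves rest on a single DMSO library.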

How the results depend on the processing

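Counts of members called were, as reported, 1 rising and 5 falling with T5, 1 and 5 with T4, and 2 and 1 with CPT. Without the filter on low values 0 rose and 3 fell with T5, 1 rose with CPT, and 1 was lower with T5 than with T4 (4 as reported). Median centring and quantile normalization each gave 3 rising and 2 falling with T5, where 41.4% and 28.4% of all genes rose and 18.8% and 22.1% fell. Each gave 3 falling with T4 (17.4% and 19.8% of all genes) and 1 lower with T5 than with T4 (11% and 12.7%). Median centring moved the median change of all genes to 0.38 with T5, 0.38 with T4 and 0.31 with CPT. With dose on a linear axis 0 rose and 0 fell with T5, 0 rose and 2 fell with T4, and 0 rose and 0 fell with CPT. Treated libraries alone gave 0 rising with T5 (24.7% of all genes), and 1 rising and 5 falling with CPT (15.4% and 22.5% of all genes). The mean of treated libraries minus DMSO, chosen after seeing the data, gave 0 rising and 0 falling with T5, the same with T4, and 0 falling with CPT. The cause was not tested. Leaving out 1 library gave 0 to 1 rising and 3 to 5 falling with T5, 1 rising and 4 to 5 falling with T4, and 0 to 2 rising and 0 to 1 falling with CPT. Leaving out 1 dose gave 0 to 5 members lower with T5 than with T4, and kept 9 lower for T5 and 8 lower for T4 against CPT. No shares of all genes are given for fits without a library or dose, without the filter or on the linear axis.

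The 27 changes of sign were all in values called under neither setting. With median centring they were NFKB1 0.32 and NFKBIB 0.21 with T4, RELA 0.075, RELB 0.065 and BIRC3 0.17 with CPT, and NFKBIA 0.047 for T5 minus T4. With quantile normalization they were NFKB1 0.15 and NFKBIB 0.094 with T4, and RELB 0.10 and BIRC3 0.087 with CPT. On a linear scale they were NFKBIB -0.0096 with T5 and TNFAIP3 -0.36 with T4. With treated libraries alone they were NFKB2 0.15 and NFKBIB -0.0083 with T5, TNFAIP3 -0.63 with T4 and NFKBIE -0.44 with CPT. For the mean minus DMSO they were NFKB1 0.19 and REL 0.0010 with T4, and NFKB2 0.14, REL 0.11, RELA 0.10, RELB 0.70 and BIRC3 0.58 with CPT. Leaving out a library or dose gave NFKB1 between -0.37 and 0.088 with T4, BIRC3 between -0.30 and 0.061 with CPT, and NFKBIA between -0.16 and 0.014 for T5 minus T4, positive only without 20 µM, or for NFKBIA also 10 µM.

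Differences between compounds were paired by dose. Pairing by replicate number was not possible, since each condition has 1 library and the labels carry no such numbers. Depth in reads is unknown, so low genes such as BIRC3 and REL carry no counting interval.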
